A study of Bos taurus with 37 samples.

Results

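Autosomal transcripts of male bovine blastocysts made by somatic cell nuclear transfer (SCNT-BLs) were compared with those of male blastocysts that went through sham nuclear transfer (sham NT-BLs). The comparison holds 6 single SCNT-BLs and 6 single sham NT-BLs, 12 of the 37 libraries of the series. Genes were taken when they lay outside the X and Y chromosomes and had a mean above 0.1 FPKM, the fragments of a gene scaled by its exon length and by the mapped fragments of the library, in these 12 libraries, which left 14207 of 21608 autosomal rows in a table of 22628 rows. The comparison sets an embryo with a somatic nucleus against a manipulated embryo that kept its own genome.

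The study profiled poly-A RNA of whole single blastocysts from in vitro fertilization (IVF), SCNT and sham NT in both sexes, with 1 library of donor cells for each sex. The male SCNT-BLs carried nuclei of male ear skin fibroblasts of adult origin, each injected into an enucleated oocyte, fused by an electric pulse and then activated. The male sham NT-BLs came from zygotes fertilized in vitro, from which the polar body and some of the cytoplasm beneath it were drawn out with both pronuclei left in place, and which were then treated with ionomycin and dimethylaminopurine. Male IVF-BLs were fertilized and cultured without manipulation. The sources do not say how many animals gave the male donor cells, whereas each sham NT-BL came from its own fertilization, so the origin of the nucleus and the genotype cannot be told apart here. The blastocysts were separate embryos, but the sources do not tie them to fertilization or culture runs.

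A bovine blastocyst holds an outer trophectoderm, which builds the fluid-filled cavity and later the placenta, and an inner cell mass that gives rise to the epiblast and the primitive endoderm. After nuclear transfer the oocyte cytoplasm has to silence the donor cell's program and start the embryonic one. Sham NT imitates the physical damage and the artificial activation but leaves the parental genomes in place. As described, it holds no cell injection or electric fusion, and its artificial activation comes after fertilization. These steps differ together with the nucleus and cannot be told apart from it here.

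The libraries were first compared for what could move with the groups. Autosomal genes above 0.1 FPKM ran from 12181 to 12956 per SCNT-BL and from 11978 to 12995 per sham NT-BL, and the mean difference of 161.7 genes gave p = 0.394 in an exact two-sided permutation test, where the smallest p that 6 against 6 allows is 0.00216. Relative depth, read from the steps between low values and set to 1 for SCNT replicate 1, was a coarse estimate and ran from 0.660 to 1 in SCNT-BLs and from 0.551 to 0.824 in sham NT-BLs. By the mapping record of these libraries, every male sham library had a smaller share of mapped reads than every male SCNT library, by a wide margin except in sham replicate 2, which came close to SCNT. The 4 rows of ribosomal RNA took 5.96% to 15.3% of summed FPKM in SCNT-BLs (median 8.30%) and 0.984% to 3.56% in sham NT-BLs (median 1.70%), against 3.05% to 5.56% in male IVF-BLs. SCNT-BLs did not overlap with either group, whereas sham NT-BLs and IVF-BLs overlapped. The part of mapping and of ribosomal RNA in single results was not tested beyond the alternatives given here. The embryonic label held in both groups. KRT8 and KRT18, keratins of the trophectoderm, stood at 1246 to 2876 and 1539.8 to 4233 FPKM in SCNT-BLs and at 1447 to 3404 and 1529 to 3049 FPKM in sham NT-BLs, and neither was called.

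Of the 14207 autosomal genes, 1688 (11.9%) passed limma's test at an adjusted p of 0.05, with SCNT-BLs above sham NT-BLs for 810 (5.70%) and below them for 878 (6.18%). Differences are given on the log2(FPKM + 1) scale as SCNT minus sham with their standard error, which understates the change of genes with low values. A difference above 1 was seen for 637 of the higher and 691 of the lower genes, and a difference above 2 for 99 and 111. The groups did not overlap at all for 393 of the higher and 467 of the lower genes, where 918 of all 14207 genes (6.46%) did not overlap. Over all autosomal genes the median difference was 0.0042. Counts of calls in the gene lists below are to be read beside the shares of 5.70% higher and 6.18% lower, and no list was tested as a set. A call was kept in each of the 12 fits that leave out 1 library for 526 of the higher and 588 of the lower genes. When the values were rescaled without ribosomal RNA, an alternative chosen after seeing the data, the split moved from 48.0% to 58.4% higher (1022 higher, 728 lower) and the median to 0.062. Without sham replicate 2 there were 739 higher and 776 lower genes. With sham replicate 2 as the only sham library there were 269 and 464, of which 207 and 209 were among the calls above.

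**Figure D1:**
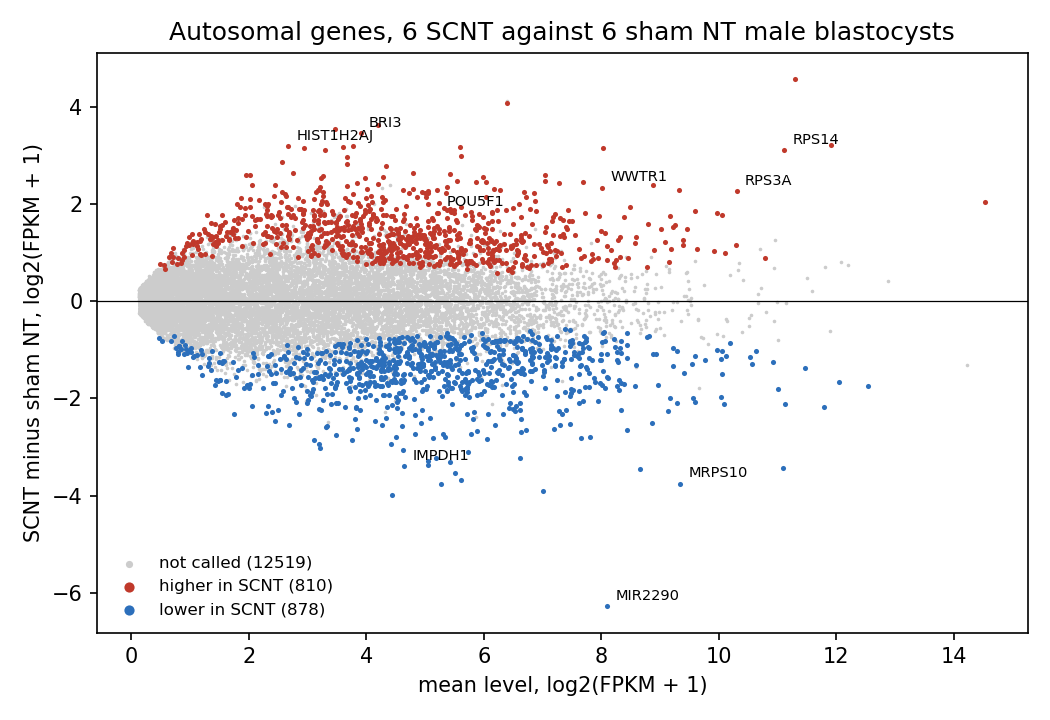
Difference between 6 male SCNT-BLs and 6 male sham NT-BLs (y axis, log2(FPKM + 1)) against the mean level of the gene (x axis, log2(FPKM + 1)). Each point is 1 autosomal gene, red where higher and blue where lower in SCNT at an adjusted p of 0.05 (810 and 878 genes), and both colors run from low to high mean levels.

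Male IVF-BLs, which took no part in the test, lay closer to SCNT-BLs than to sham NT-BLs. Profiles of 10576 genes correlated at 0.847 to 0.891 between SCNT-BLs and IVF-BLs (36 pairs, median 0.870), at 0.801 to 0.849 between sham NT-BLs and IVF-BLs (36 pairs, median 0.826) and at 0.801 to 0.867 between SCNT-BLs and sham NT-BLs (36 pairs, median 0.835). Within groups the medians were 0.904 for SCNT-BLs, 0.876 for sham NT-BLs and 0.893 for IVF-BLs. The first principal component (21.4% of variance) set the sham NT-BLs apart from both other groups, and the second (11.6%) set SCNT-BLs apart from IVF-BLs. The sham libraries also had the lowest relative depth, with a median of 0.648 against 0.898 in SCNT-BLs and 0.946 in IVF-BLs. The part of depth and mapping in these correlations and components was not tested. Among called genes the IVF mean stood nearer to SCNT than to sham for 566 of 810 higher genes (69.9%) and for 644 of 878 lower genes (73.3%). The median of sham minus IVF was -1.002 over the higher and 1.03 over the lower genes, and that of SCNT minus IVF was 0.36 and -0.29. These shares describe genes that were chosen for their difference between SCNT and sham, and carry no test.

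**Figure D2:**
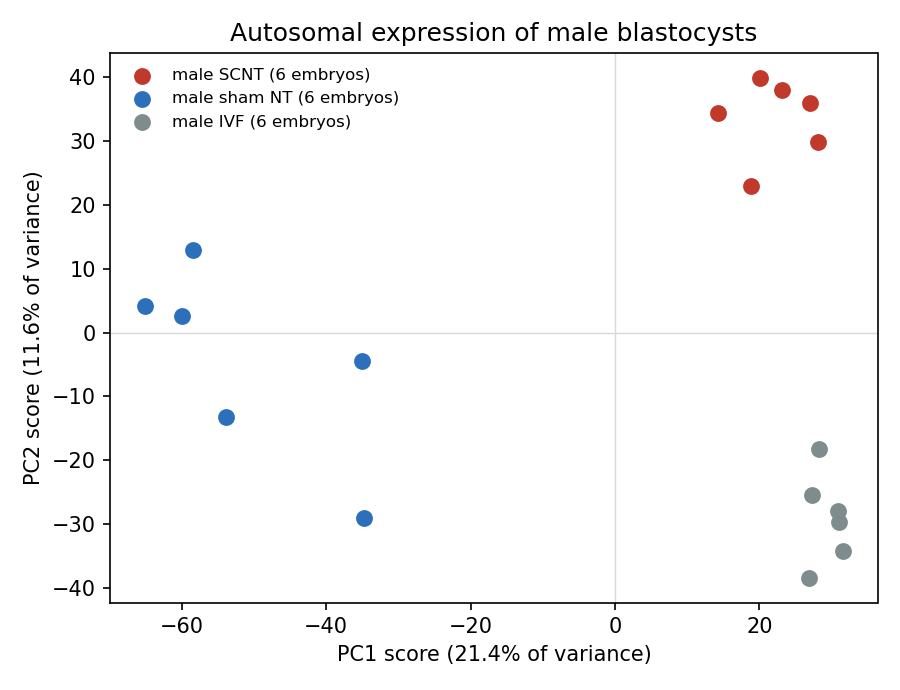
Principal components of autosomal log2(FPKM + 1) in 18 male blastocysts, with PC1 (21.4% of variance) on the x axis and PC2 (11.6%) on the y axis. Each point is 1 embryo. The 6 sham NT-BLs lie at negative PC1 scores, and the 6 SCNT-BLs and 6 IVF-BLs lie at positive PC1 scores and at opposite ends of PC2.

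MRPS10, a protein of the small mitochondrial ribosomal subunit, had the smallest p of all. It stood at 998 to 1504 FPKM in sham NT-BLs (median 1170.0) and at 64.7 to 150.5 FPKM in SCNT-BLs (median 82.1), a difference of -3.75 ± 0.23 (adjusted p = 2.47e-07). The groups did not overlap, and the male IVF-BLs had MRPS10 at 119 to 253 FPKM. IMPDH1, which makes guanine nucleotides, ran from 26.7 to 68.8 FPKM in sham NT-BLs against 1.39 to 5.72 FPKM in SCNT-BLs (-3.40 ± 0.32, adjusted p = 2.83e-05). Other genes among the largest falls were TCF25 (-3.90), PIGL (-3.32), an enzyme of GPI anchor synthesis, ARL10 (-3.22), CCDC51 (-3.22), DKKL1 (-3.01) and C17H22orf13 (-2.93). Of these, PIGL, ARL10, CCDC51 and C17H22orf13 had groups that did not overlap.

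Among genes with a symbol of their own that is not a locus number, the largest rise belonged to C5H12orf63, at 12.9 to 70.2 FPKM in SCNT-BLs and listed at 0 in 4 of 6 sham NT-BLs, which reached 11.1 FPKM (3.62 ± 0.68, adjusted p = 0.0026). An exact 0 in such a table can be a failed estimate. BRI3, a lysosomal membrane protein, ran from 12.7 to 38.9 FPKM in SCNT-BLs and from 0 to 6.14 FPKM in sham NT-BLs (3.46 ± 0.47, adjusted p = 2.23e-04). LAMTOR1, which anchors the Ragulator complex to lysosomes, ran from 10.8 to 27.5 against 0.608 to 2.69 FPKM (3.18 ± 0.33, adjusted p = 4.61e-05). MANF, a secreted factor of the endoplasmic reticulum (ER) stress response, ran from 15.3 to 28.2 against 0 to 12.2 FPKM (3.20 ± 0.52, adjusted p = 9.36e-04). None of these 4 genes had groups that overlapped. S100A5 (3.17), LRRC3B (3.16), ULBP11 (3.12), SEC61G (2.98), a subunit of the ER translocon, RWDD1 (2.97) and PPP1R14A (2.88), an inhibitor of protein phosphatase 1, followed.

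Of 20 tested genes of pluripotency and the epiblast 4 were higher and 0 lower (median 0.38), and of 23 trophectoderm transcription factors 5 were higher and 0 lower (median 0.46). Under median centring 3 pluripotency genes were higher and 1 was lower. Without SCNT replicate 3 or 5 the pluripotency count was 2, and without SCNT replicate 2 or 4 or sham replicate 6 the trophectoderm count was 3. POU5F1, the core pluripotency factor, stood at 35.1, 53.8 and 80.3 FPKM (lowest, median, highest) in SCNT-BLs and at 8.18, 16.6 and 21.4 FPKM in sham NT-BLs, a difference of 1.82 ± 0.27 (adjusted p = 4.49e-04). The groups did not overlap, and the IVF-BLs at 33.9 to 73.2 FPKM had POU5F1 at nearly the range of SCNT-BLs. ESRRB, an orphan nuclear receptor of naive pluripotency, ran from 31.1 to 74.6 against 7.62 to 26.5 FPKM (1.20 ± 0.31, adjusted p = 0.0197). TBX3 (0.71, adjusted p = 0.0239) and DPPA4 (0.86, adjusted p = 0.0412) were also higher, but the call of TBX3 was lost without SCNT replicate 2, 3 or 5 (adjusted p up to 0.0593) and that of DPPA4 without SCNT replicate 1, 3, 4, 5 or 6 or sham replicate 2, 3 or 6 (up to 0.0865). NANOG and SOX2 were not called, with differences of 0.36 ± 0.76 and 0.40 ± 0.61. NANOG ran from 0 to 15.9 FPKM in SCNT-BLs and from 0 to 6.58 FPKM in sham NT-BLs.

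KLF5, a Krüppel-like factor used by the trophectoderm and the inner cell mass, stood at 51.7, 64.1 and 82.1 FPKM in SCNT-BLs and at 24.7, 29.1 and 39.5 FPKM in sham NT-BLs, with no overlap (1.06 ± 0.20, adjusted p = 0.00213). CDX2, the factor that holds the trophectoderm fate, ran from 30.2 to 58.8 FPKM in SCNT-BLs and from 6.78 to 41.0 FPKM in sham NT-BLs (1.37 ± 0.33, adjusted p = 0.0112). The highest sham value of CDX2 was that of replicate 2, and against this library alone the difference was 0.05. The male IVF-BLs had CDX2 at 8.71 to 40.6 FPKM. ID2 (2.54), MSX2 (0.95) and TFAP2C (0.77) were higher, but each call was lost in some fits that leave out 1 library. The call of MSX2 was lost without SCNT replicate 4 (adjusted p 0.0506), that of ID2 without SCNT replicate 2, 3, 4 or 5 or sham replicate 3, 5 or 6 (up to 0.0801), and that of TFAP2C without SCNT replicate 1, 2 or 6 or sham replicate 2, 4 or 6 (up to 0.0703). GATA3 and TEAD4, regulators of trophectoderm onset, were not called, with differences of 0.58 ± 0.28 and -0.63 ± 0.26. With sham replicate 2 as the only sham library 1 trophectoderm factor was higher and 2 were lower, and 2 pluripotency genes were higher. In whole embryos, more cells of a lineage and more RNA per cell cannot be told apart.

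Of 20 tested primitive endoderm genes 1 (5%) was higher and 1 (5%) lower (median -0.07), near the shares over all autosomal genes (5.70% and 6.18%). GATA6, which starts the primitive endoderm, stood at 131 to 243 FPKM in SCNT-BLs and at 66.9 to 116 FPKM in sham NT-BLs with no overlap (1.21 ± 0.22, adjusted p = 0.00189), and at 92.0 to 114 FPKM in IVF-BLs. CTSL2, a cathepsin, ran from 110.5 to 295 against 359.7 to 502 FPKM (-1.20 ± 0.22, adjusted p = 0.00208). HNF4A and PDGFRA were not called, at -0.59 ± 0.58 and 0.60 ± 0.47. Secreted trophoblast proteins had 0 of 12 called by limma and 2 at an unadjusted p under 0.05, with IFNT, the interferon of maternal recognition, at 56.5 to 235 FPKM in SCNT-BLs and 9.20 to 434 FPKM in sham NT-BLs. Of 10 keratins 0 were called by limma (1 at an unadjusted p under 0.05), and of 32 genes of Nodal, activin and BMP signaling 1 was higher and 0 lower. In FGF and MAPK signaling 1 (2.63%) was higher and 2 (5.26%) lower of 38 (median -0.01). The feedback inhibitor SPRY2 was among the lower, at 0.381 to 2.36 against 3.22 to 6.32 FPKM (-1.37 ± 0.33, adjusted p = 0.012).

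**Figure D3:**
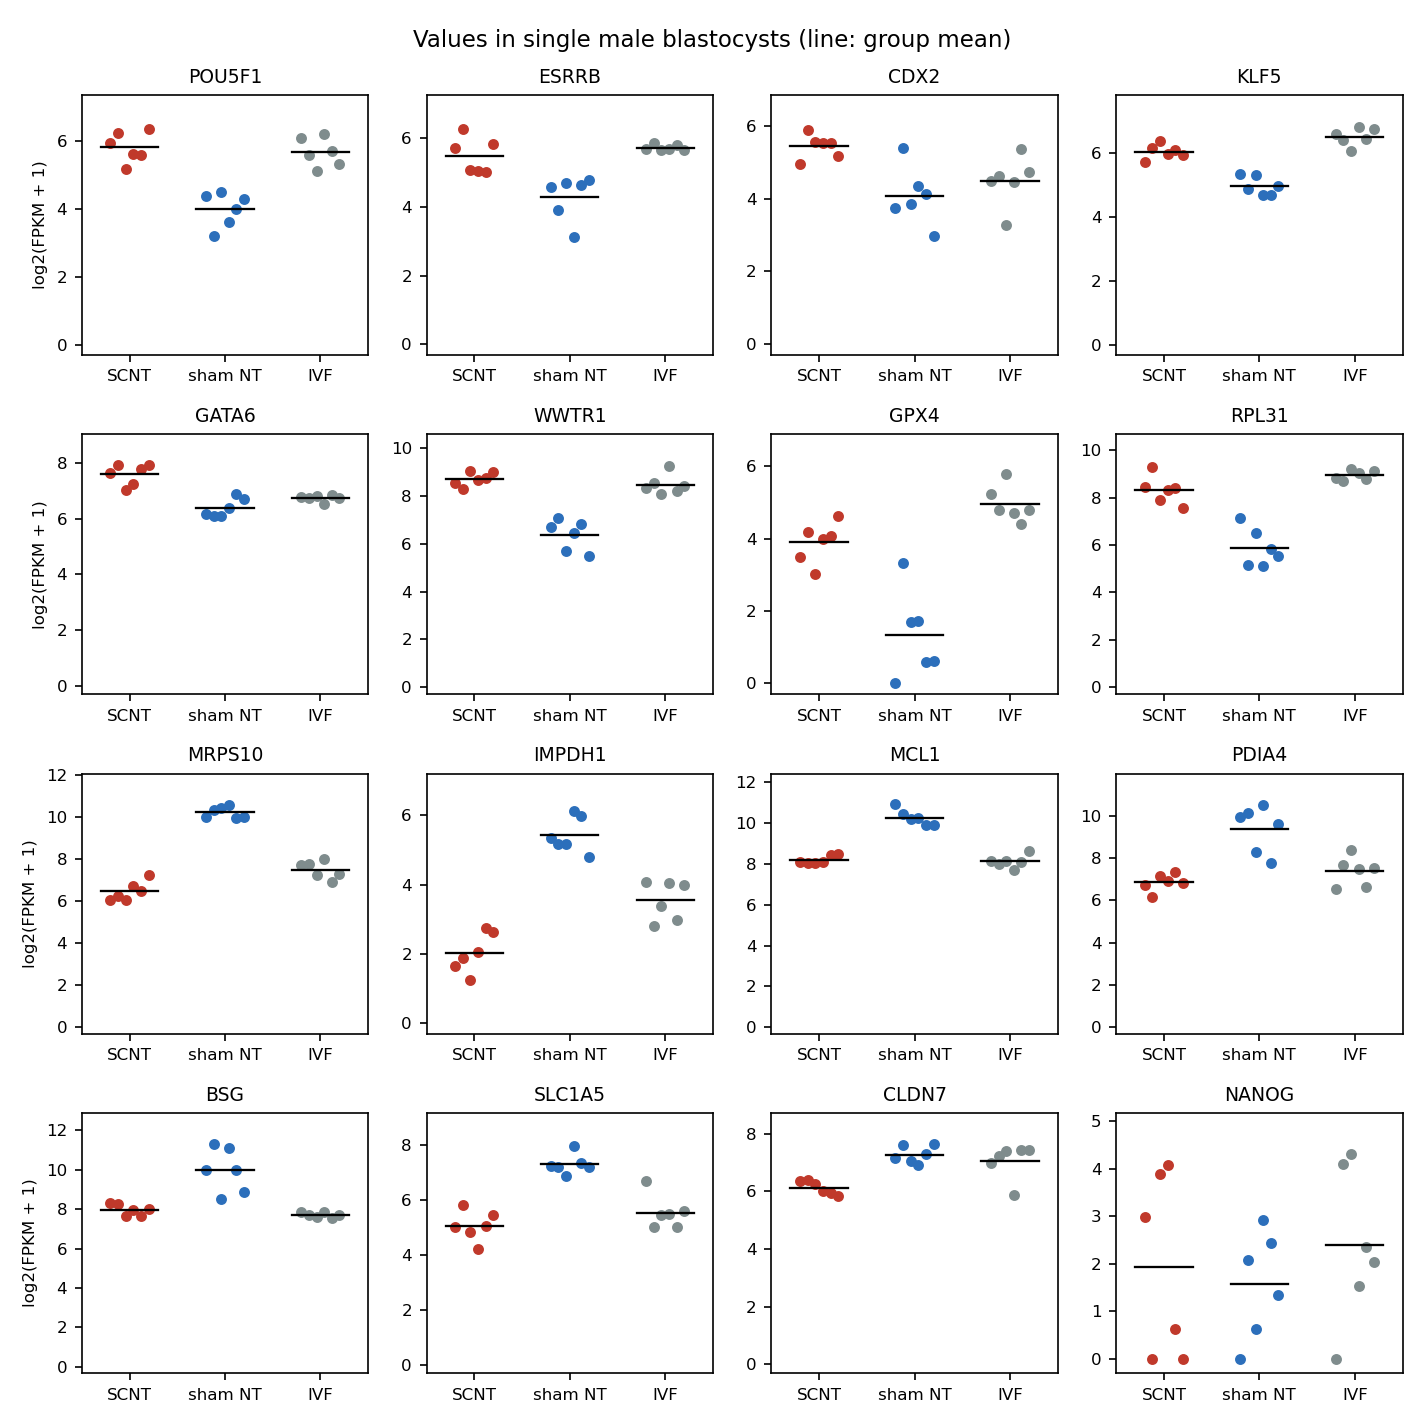
Levels of 16 genes in single male blastocysts, with log2(FPKM + 1) on the y axis and the 6 SCNT-BLs (red), 6 sham NT-BLs (blue) and 6 IVF-BLs (grey) side by side. Points are embryos and lines are group means. In MRPS10, IMPDH1, MCL1, PDIA4, BSG and SLC1A5 the sham NT-BLs lie above all SCNT-BLs, in POU5F1, ESRRB, KLF5, GATA6, WWTR1 and RPL31 below them, and in NANOG the groups overlap.

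WWTR1 (TAZ), the partner of YAP in Hippo signaling, which reads cell position in the blastocyst, stood at 313, 414 and 525 FPKM in SCNT-BLs and at 44.0, 95.3 and 134 FPKM in sham NT-BLs (2.34 ± 0.27, adjusted p = 7.42e-05). The groups did not overlap, and IVF-BLs had WWTR1 at 273 to 609 FPKM. Of 27 Hippo genes tested 5 were higher and 1 lower (median 0.07). TAOK1, a kinase upstream of the Hippo core, ran from 97.7 to 186 against 41.5 to 71.9 FPKM (1.35 ± 0.22, adjusted p = 8.20e-04).

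Genes of the blastocoel, which seal and fill the cavity, were called in both directions, 5 higher and 8 lower of 49 (median 0.04). Claudins were called in both directions, and the epithelial cadherin fell. CLDN7, a tight junction claudin, ran from 55.7 to 83.5 FPKM in SCNT-BLs and from 120.0 to 200.4 FPKM in sham NT-BLs (-1.14 ± 0.19, adjusted p = 0.00112). CLDN10 fell from 17.3 to 141 FPKM in sham NT-BLs to 0 to 18.6 FPKM in SCNT-BLs (-3.28 ± 0.64, adjusted p = 0.003). CLDN1 rose from 0 to 3.13 FPKM in sham NT-BLs to 1.05 to 14.3 FPKM in SCNT-BLs (2.08 ± 0.48, adjusted p = 0.00897), with sham replicate 2 within the range of SCNT. CLDN4 (-1.44, adjusted p = 0.00819) and CDH1 (-1.13, adjusted p = 0.0178), the cadherin of epithelial adhesion, were lower as well. CLDN1, CLDN7 and CDH1 were chosen for naming after their values were seen. ATP1B3, a beta subunit of the sodium pump, was higher, at 80.3 to 207 against 26.0 to 95.4 FPKM (1.59 ± 0.30, adjusted p = 0.00237).

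Of 79 cytosolic ribosomal protein genes 22 (27.8%) were higher and 11 (13.9%) were lower, with a median difference of 0.57 and a positive sign in 54. Under median centring, quantile normalization and rescaling without ribosomal RNA the counts ran from 21 to 25 higher and from 9 to 11 lower. With sham replicate 2 alone they were 11 and 6. The lower count was 6 or 7 without SCNT replicate 1, 3 or 6 or without sham replicate 4 or 5, and 7 with no filter on low values. RPL31 stood at 190.4, 328 and 632 FPKM in SCNT-BLs and at 33.3, 50.5 and 141 FPKM in sham NT-BLs (2.44 ± 0.35, adjusted p = 3.65e-04), with no overlap and with IVF-BLs at 411 to 597 FPKM. RPL19 (2.30 ± 0.32, adjusted p = 2.90e-04) had no overlap either. RPS14 stood at 729.6 to 5671 against 169 to 776 FPKM (3.11 ± 0.49, adjusted p = 6.47e-04), where 1 SCNT-BL, replicate 6, lay within the range of sham. RPL38 ran from 32.2 to 125 against 3.50 to 36.4 FPKM (2.63 ± 0.44, adjusted p = 0.00115). On the other side, RPL10A ran from 45.4 to 96.5 FPKM in SCNT-BLs and from 96.0 to 1539 FPKM in sham NT-BLs (-2.65 ± 0.50, adjusted p = 0.00262). RPL24 (-1.98 ± 0.43, adjusted p = 0.00597) and RPS6 (-1.47 ± 0.26, adjusted p = 0.00149) were lower too. Ribosomal protein genes have many processed pseudogenes in mammalian genomes, and reads shared with such copies make single values uncertain.

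Of 75 mitochondrial ribosomal protein genes 14 (18.7%) were higher and 7 (9.33%) lower (median 0.26). The summed FPKM of the list went the other way, at 1613 to 2129 in SCNT-BLs and 2488 to 3471 in sham NT-BLs. MRPS10, described above, had the largest fall of the list (-3.75) and counts in these sums. MRPL3 ran from 36.0 to 97.1 against 10.8 to 29.2 FPKM (1.88 ± 0.28, adjusted p = 4.35e-04) and MRPS28 from 6.71 to 28.3 against 0.279 to 6.46 FPKM (2.10 ± 0.44, adjusted p = 0.00478). MRPL39 was lower, at 9.41 to 26.9 against 29.6 to 103 FPKM (-1.84 ± 0.32, adjusted p = 0.00135). Of 80 genes of oxidative phosphorylation 13 (16.2%) were higher and 7 (8.75%) lower (median 0.14). The higher count was 8 without SCNT replicate 4 or sham replicate 2, and the lower count was 11 without sham replicate 1. Complex I held genes of both kinds. NDUFB6 ran from 123 to 194 against 23.1 to 82.4 FPKM (2.15 ± 0.29, adjusted p = 1.92e-04), whereas NDUFB5 ran from 5.96 to 13.3 against 12.99 to 189.8 FPKM (-2.73 ± 0.53, adjusted p = 0.00316). NDUFC1 was listed at 0 in 3 SCNT-BLs and in 1 sham NT-BL and reached 1.98 and 32.4 FPKM (-2.94 ± 0.69, adjusted p = 0.00992). ATP5G2, a ring subunit of ATP synthase, ran from 643 to 1215 against 125 to 513 FPKM (1.76 ± 0.30, adjusted p = 0.00121).

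Of 46 proteasome genes 5 (10.9%) were higher and 5 lower. PSMB1, a core particle subunit, ran from 46.3 to 79.5 against 5.26 to 27.5 FPKM (2.29 ± 0.36, adjusted p = 6.37e-04). PSMC3, an ATPase of the regulatory particle, ran from 159 to 342 against 539 to 1374 FPKM (-2.09 ± 0.26, adjusted p = 1.41e-04). Among 38 chaperones of the heat shock families 3 (7.89%) were higher and 1 (2.63%) lower (median -0.07). Within the chaperonin CCT, CCT4 was higher (1.52 ± 0.26, adjusted p = 0.00136) and CCT8 lower (-1.94 ± 0.28, adjusted p = 3.44e-04), each with no overlap between the groups.

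**Figure D4:**
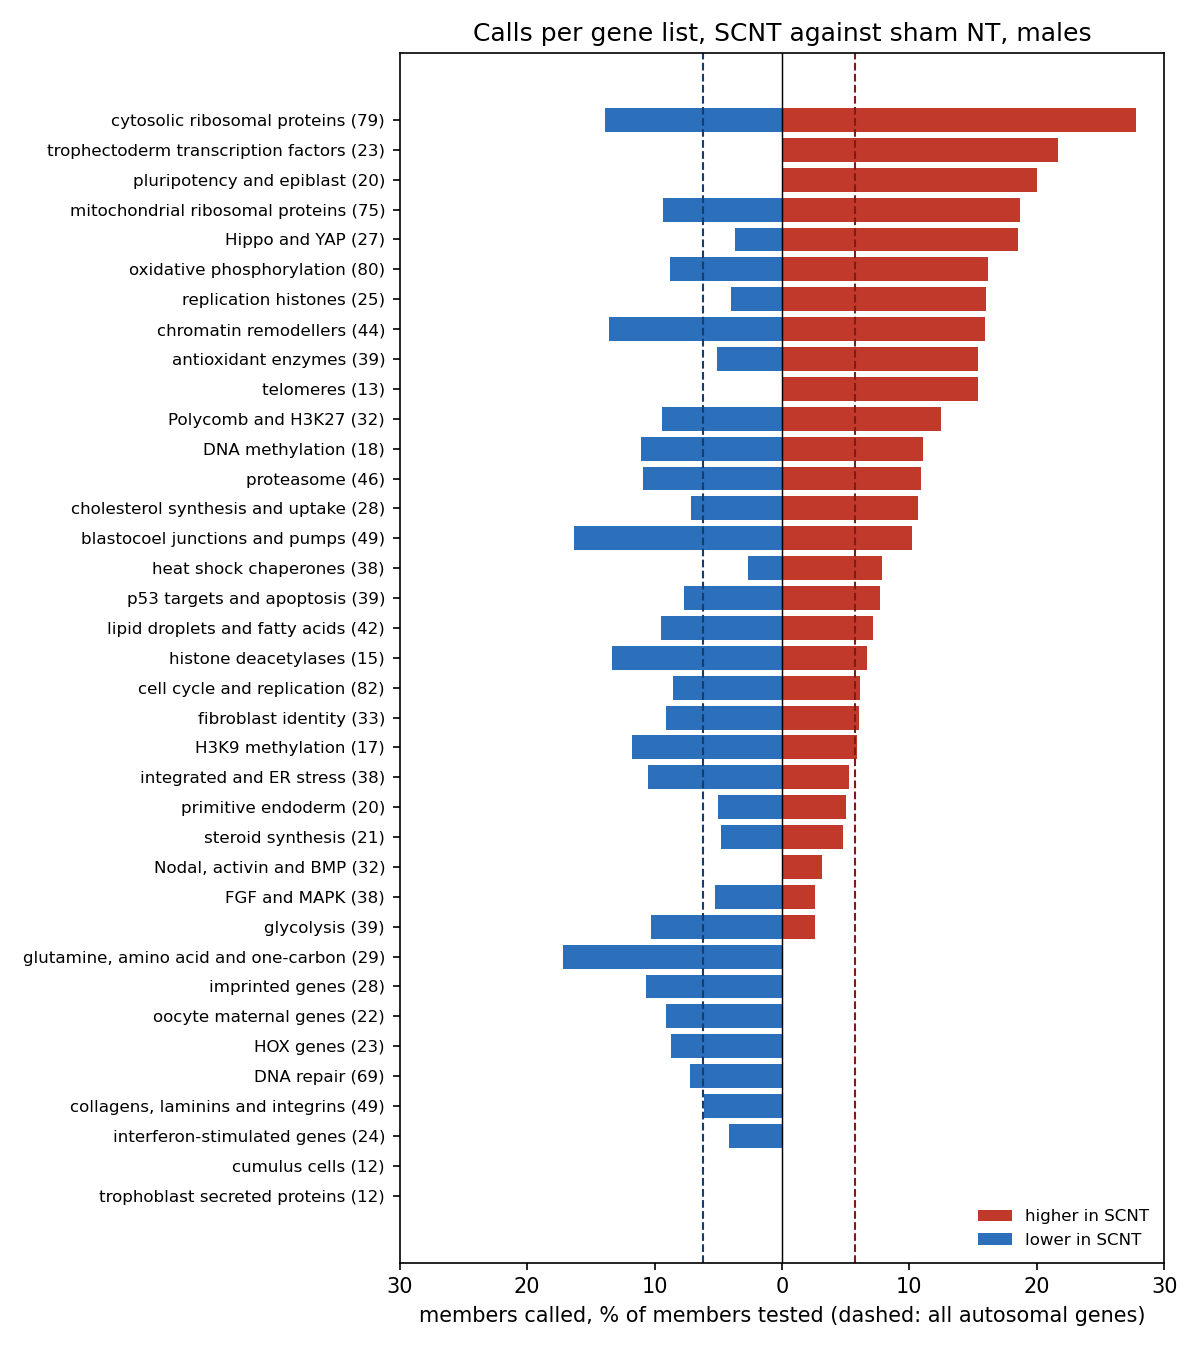
Share of the tested members of each gene list that was called higher (red, to the right) or lower (blue, to the left) in male SCNT-BLs than in male sham NT-BLs, in percent on the x axis, with the number of tested members in parentheses. Dashed lines mark the shares over all autosomal genes (5.70% higher, 6.18% lower). Cytosolic ribosomal proteins have the longest bar to the right (27.8%), and lists with fewer than 12 tested members are left out.

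MCL1, an anti-apoptotic member of the BCL2 family, stood at 264, 269 and 352 FPKM in SCNT-BLs and at 944, 1174 and 1942 FPKM in sham NT-BLs (-2.06 ± 0.22, adjusted p = 4.61e-05). The groups did not overlap, and the IVF-BLs had MCL1 at 203 to 388 FPKM. BIRC5 (survivin) was lower (-1.21 ± 0.24, adjusted p = 0.00318), while CASP6, an executioner caspase, was higher, at 7.24 to 18.9 against 0 to 6.17 FPKM (1.88 ± 0.48, adjusted p = 0.0164). Over 39 p53 targets and apoptosis genes 3 (7.69%) were higher and 3 (7.69%) lower (median -0.06). Among 38 genes of the integrated and ER stress responses 2 (5.26%) were higher and 4 (10.5%) lower (median -0.01). PDIA4, an ER disulfide isomerase, ran from 70.2 to 163 against 218 to 1450.4 FPKM (-2.51 ± 0.41, adjusted p = 8.39e-04). ATF6, an ER stress sensor, ran from 72.2 to 186 against 218 to 647 FPKM (-1.72 ± 0.29, adjusted p = 0.0013). NUPR1, a stress-induced chromatin protein, and PSAT1, an enzyme of serine synthesis, were higher, by 2.09 ± 0.45 (adjusted p = 0.00613) and 1.87 ± 0.33 (adjusted p = 0.00155).

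Of 39 antioxidant enzymes 6 (15.4%) were higher and 2 (5.13%) lower (median 0.20). In females 1 of 40 was higher and 2 were lower, where the shares over all autosomal genes were 5.26% and 6.00%. SOD1 was among the lower in males, with means of 135 FPKM in SCNT-BLs and 621 FPKM in sham NT-BLs (-1.74 ± 0.50, adjusted p = 0.0327). GPX4, which reduces lipid peroxides, ran from 7.09 to 23.6 FPKM in SCNT-BLs and from 0 to 9.05 FPKM in sham NT-BLs (2.57 ± 0.49, adjusted p = 0.00282), and its highest sham value was that of replicate 2, against which the difference was 0.57. MGST3, a microsomal glutathione transferase (2.77 ± 0.57, adjusted p = 0.00435), and GPX1 (1.71 ± 0.34, adjusted p = 0.00329) were higher too. PRDX1, an abundant peroxiredoxin, stood at 1199 to 1791 FPKM in SCNT-BLs and at 190.1 to 1654 FPKM in sham NT-BLs (1.81 ± 0.42, adjusted p = 0.00873). All sham NT-BLs but replicate 1 lay below every SCNT-BL for PRDX1. IVF-BLs stood at 20.3 to 54.1 FPKM for GPX4 and at 1507 to 2093 FPKM for PRDX1.

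Of 39 glycolysis genes 1 was higher and 4 (10.3%) lower. BSG (basigin), which carries lactate transporters to the membrane, ran from 199 to 313 against 363 to 2549 FPKM (-1.99 ± 0.41, adjusted p = 0.00428). PFKL, the liver form of phosphofructokinase (-1.77 ± 0.29, adjusted p = 0.00101), and PKM2, a pyruvate kinase (-1.09 ± 0.21, adjusted p = 0.00319), had groups that did not overlap. SLC2A1, a glucose transporter, was higher (0.96 ± 0.22, adjusted p = 0.00968). Of 29 genes of glutamine, amino acid and one-carbon metabolism 0 were higher and 5 (17.2%) lower. SLC1A5, a glutamine transporter, stood at 17.4, 31.5 and 55.3 FPKM in SCNT-BLs and at 116, 147 and 245 FPKM in sham NT-BLs (-2.24 ± 0.26, adjusted p = 7.42e-05). SLC1A1, a glutamate transporter, ran from 47.4 to 95.7 against 112 to 153 FPKM (-0.96 ± 0.20, adjusted p = 0.00439). With sham replicate 2 as the only sham library 0 of this list were lower, and the count was 3 without SCNT replicate 3 or sham replicate 4.

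Of 42 genes of fatty acids and lipid droplets 3 (7.14%) were higher and 4 (9.52%) lower (median 0.0002). Of 28 genes of cholesterol synthesis and uptake 3 (10.7%) were higher and 2 (7.14%) lower (median 0.21). Over all autosomal genes the shares were 5.70% higher and 6.18% lower, so calls both ways are not particular to lipid genes. DGAT1, which completes triglycerides, ran from 1.41 to 8.01 against 20.5 to 47.5 FPKM (-2.54 ± 0.34, adjusted p = 2.06e-04). PLIN3, a coat protein of lipid droplets, ran from 20.0 to 39.4 against 82.9 to 212 FPKM (-2.16 ± 0.25, adjusted p = 7.42e-05). HMGCS1, an early enzyme of the cholesterol pathway, was higher, at 79.9 to 209.6 against 16.2 to 112 FPKM (1.93 ± 0.42, adjusted p = 0.00601). PTGES, a prostaglandin E synthase, was the lower call of 21 steroid and prostaglandin genes, at 3.28 to 46.9 against 25.3 to 412 FPKM (-2.82 ± 0.64, adjusted p = 0.00795), beside 1 higher call.

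Among 17 genes of histone H3 lysine 9 methylation 1 was higher and 2 lower. EHMT1 (GLP), a methyltransferase for this residue, ran from 4.64 to 10.1 FPKM in SCNT-BLs and from 14.2 to 37.3 FPKM in sham NT-BLs (-1.75 ± 0.27, adjusted p = 5.87e-04). PRDM2, of the same family of enzymes, ran from 74.8 to 96.0 against 18.6 to 38.9 FPKM (1.46 ± 0.20, adjusted p = 2.41e-04). Of 18 genes of DNA methylation 2 were higher and 2 lower, with a median of -0.38 and a positive sign in only 6. Differences over the 18 genes ran from -2.01 to 1.93. The 2 higher calls were the methyl-CpG binding proteins MBD2 (1.93 ± 0.32, adjusted p = 0.00101) and MBD4 (1.34 ± 0.30, adjusted p = 0.00749). DNMT1 and DNMT3A were not called, at -0.50 and -0.59. Of 32 Polycomb genes 4 were higher and 3 lower. SUZ12, a core subunit of Polycomb complex PRC2, was higher (0.81 ± 0.19, adjusted p = 0.00907), and its accessory subunit MTF2 (-1.27 ± 0.25, adjusted p = 0.00334) and L3MBTL2 (-1.45 ± 0.24, adjusted p = 8.65e-04) were lower. Of 44 chromatin remodellers 7 (15.9%) were higher and 6 (13.6%) lower. The SWI/SNF subunits SMARCE1 (1.24 ± 0.21, adjusted p = 0.00101) and SMARCB1 (1.78 ± 0.42, adjusted p = 0.0109) were higher. Of 15 deacetylases 1 was higher and 2 lower, SIRT7 among the lower (-1.69 ± 0.32, adjusted p = 0.00261).

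Replication histones had 4 higher and 1 lower call of 25. HIST1H2AJ stood at 6.24 to 15.6 FPKM in SCNT-BLs and was listed at 0 in 5 of 6 sham NT-BLs, with the other at 2.09 FPKM (adjusted p = 7.42e-05). HIST1H2AG was listed at 0 in 4 sham NT-BLs and ran from 4.19 to 12.7 FPKM in SCNT-BLs (adjusted p = 0.00361). Replication histone mRNAs mostly lack a poly-A tail, so poly-A libraries hold only a part of them. Of 82 cell cycle genes 5 (6.10%) were higher and 7 (8.54%) lower, near the shares over all autosomal genes (5.70% and 6.18%), with a median of -0.02. PCNA, the replication clamp (1.77 ± 0.34, adjusted p = 0.0026), the phosphatase CDC25A (1.24 ± 0.21, adjusted p = 0.00117) and cyclin CCNB1 (1.30 ± 0.27, adjusted p = 0.0049) were higher. MCM5, of the replicative helicase, ran from 18.5 to 37.8 against 55.3 to 137 FPKM (-1.63 ± 0.25, adjusted p = 5.78e-04), and ORC6, of the origin recognition complex, was lower too (-1.45 ± 0.30, adjusted p = 0.00433). Of 69 DNA repair genes 0 were higher and 5 (7.25%) lower, near the 6.18% lower over all autosomal genes. The median of this list was 0.15, with a positive sign in 43. Among the lower calls were the mismatch repair gene MSH6, at 74.8 to 122 against 123 to 326 FPKM (-1.19 ± 0.25, adjusted p = 0.00525), and RAD51C, of homologous recombination, at -1.46 ± 0.31 (adjusted p = 0.00561). Both telomere genes called of 13 were higher, TERF2IP by 1.91 ± 0.44 (adjusted p = 0.00944) and NOP10 by 1.76 ± 0.39 (adjusted p = 0.00654).

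Traces of the donor cell were looked for directly. VIM (vimentin), COL3A1 and PRRX1, at 1409, 3848 and 932 FPKM in the male donor library, did not exceed 0.196, 0.0251 and 0.164 FPKM in any SCNT-BL or 0.591, 0.602 and 0.742 FPKM in any sham NT-BL. Of 33 fibroblast genes tested 2 were higher, SPARC (1.09 ± 0.33), which encodes a matrix glycoprotein, and CYR61 (1.38 ± 0.40), a matricellular protein, and 3 were lower, all collagens (COL1A1, COL1A2 and COL12A1). These 5 calls had adjusted p of 0.0278 to 0.0479, and each was lost in several of the 12 fits that leave out 1 library, which had 0 to 1 higher and 0 to 3 lower calls. The 43 autosomal rows of this list summed to 774 to 1559 FPKM in SCNT-BLs, to 487 to 850 FPKM in sham NT-BLs and to 559 to 1273 FPKM in IVF-BLs, against 38977 FPKM in the donor library. SPARC made up most of these sums in the mean of each blastocyst group, at 424 to 1303 FPKM in SCNT-BLs, 143 to 653 FPKM in sham NT-BLs and a mean of 611 FPKM in IVF-BLs. In a wider set, drawn after seeing the data from the donor library and the IVF-BLs, 463 autosomal rows stood above 10 FPKM in the donor cells and had an IVF mean below 1. The set summed to 180.5 to 238.5 FPKM in SCNT-BLs, to 373 to 1875 FPKM in sham NT-BLs and to 47466 FPKM in the donor library. In IVF-BLs, whose low mean was a condition of the set, it summed to 112 to 183 FPKM. The median member stood at 0.214 FPKM in SCNT-BLs and 0.233 FPKM in sham NT-BLs, where the log2(FPKM + 1) scale leaves little room for a call. The short feature MIR2290, described with the comparison of the sexes, belongs to the set, and without it, a choice also made after seeing the data, the sham sums were 302 to 596 FPKM while those of SCNT-BLs were as before. Of its 326 tested genes 1 (0.307%) was higher and 8 (2.45%) were lower in SCNT-BLs, with 6 to 12 lower when 1 library was left out and 16 lower with sham replicate 2 alone. In the reverse set, above 10 FPKM in IVF-BLs on average and below 1 in the donor cells, 32 (8.77%) of 365 were higher and 25 (6.85%) lower. POU5F1, CDX2, ESRRB and GATA6 belong to this set and stood at 0.107, 0.291, 0 and 0.0906 FPKM in the donor library.

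HOXC6 and HOXC4, positional genes of the C cluster, were the lower calls of 23 HOX genes. HOXC6 stood at 46.1 FPKM in the donor cells, at 0.214 to 1.66 FPKM in SCNT-BLs and at 3.89 to 29.8 FPKM in sham NT-BLs (-2.85 ± 0.46, adjusted p = 8.93e-04). Of 49 collagens, laminins and integrins 0 were higher and 3 lower. Of 22 maternal genes of the oocyte 0 were higher and 2 lower, with GTSF1, a factor of the piRNA pathway, at 9.48 to 16.1 against 15.9 to 123 FPKM (-2.11 ± 0.40, adjusted p = 0.00255). DPPA3 (stella) was not called (-0.81 ± 0.35). Of 28 imprinted genes 0 were higher and 3 lower. GNAS ran from 118 to 159.5 against 172 to 375 FPKM (-0.88 ± 0.21, adjusted p = 0.0113) and GRB10, a growth inhibitor, from 10.5 to 24.9 against 25.0 to 42.0 FPKM (-0.95 ± 0.24, adjusted p = 0.0148). Of 7 genes of bovine genome activation 0 were called by limma (1 at an unadjusted p under 0.05), and of 24 interferon-stimulated genes 0 were higher and 1 lower. Cumulus cell markers had 0 of 12 called by limma (3 at an unadjusted p under 0.05). The list summed to 147 to 1792 FPKM in SCNT-BLs and 132 to 2073 FPKM in sham NT-BLs. Only FOXL2, TNFAIP6 and INHA were at 0 in all 12 embryos. CYP11A1 averaged 114 FPKM in SCNT-BLs and 73.2 FPKM in sham NT-BLs, and CYP19A1 averaged 11.2 and 5.80 FPKM. Blood cell markers had 0 of 9 called by limma (0 at an unadjusted p under 0.05). The reference genes GAPDH and ACTB were not called, at 0.06 ± 0.31 and 0.81 ± 0.28 (adjusted p = 0.0729), although every SCNT-BL lay above every sham NT-BL for ACTB.

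The same contrast in females, 6 SCNT-BLs against 5 sham NT-BLs, shares no library with the males and used female ear skin fibroblasts and another flow cell. By the mapping record, the shares of mapped reads of the female groups overlapped. In females 1633 of 14495 autosomal genes (11.3%) were called, 763 higher (5.26%) and 870 lower (6.00%). Of the 810 genes higher in males, 679 (83.8%) were also higher by sign in females and 215 (26.5%) were called higher, with 8 called lower. Of the 878 lower genes, 876 were tested in females, 740 (84.5%) had the same sign and 352 (40.2%) were called lower, with 14 called higher. In all, 567 genes were called in the same direction in both sexes, 33.6% of the male and 34.7% of the female calls. Over 13480 genes the differences in males and females correlated at r = 0.445, given as a description, since genes are not independent.

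**Figure D5:**
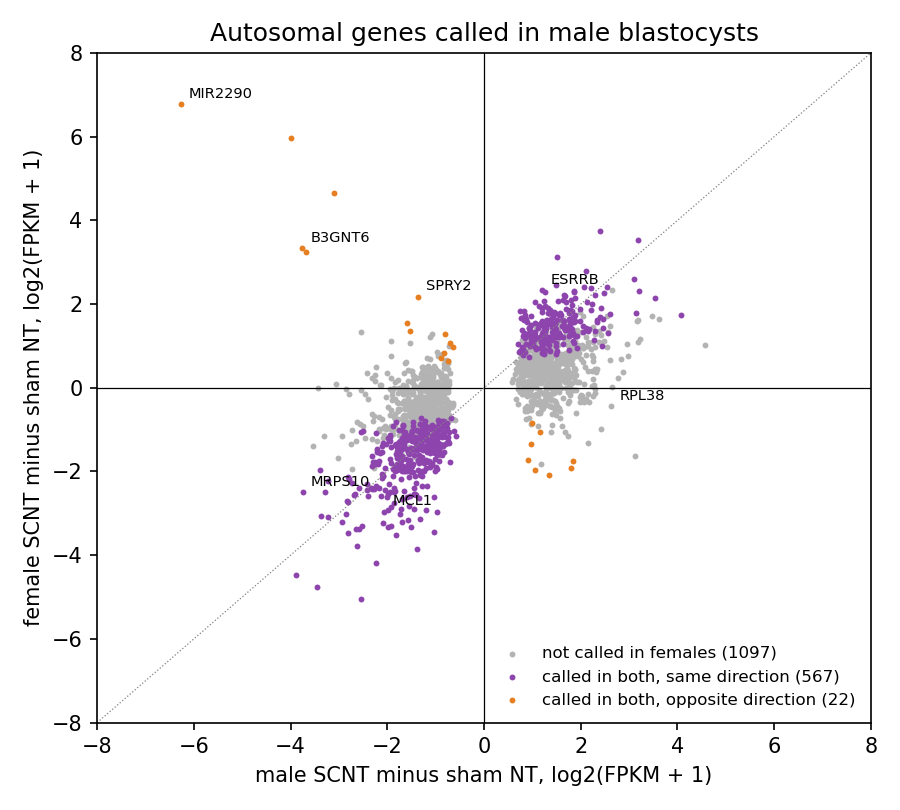
SCNT minus sham difference on the log2(FPKM + 1) scale in males (x axis) and females (y axis) for genes called in males. Each point is 1 gene, purple where called in the same direction in females (567), orange where called in the opposite direction (22) and grey otherwise, and the dotted line marks equal differences. Most points lie in the quadrants of equal sign.

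MRPS10 ran from 86.7 to 556 FPKM in female SCNT-BLs and from 632 to 1272 FPKM in female sham NT-BLs (-2.50, adjusted p = 0.00227). MCL1 (-2.96, adjusted p = 6.89e-05), PSMC3 (-3.23, adjusted p = 4.07e-05), BSG (-2.93, adjusted p = 1.25e-04), ATF6 (-2.19, adjusted p = 1.68e-04), RPL10A (-3.37, adjusted p = 2.12e-04) and SLC1A5 (-2.34, adjusted p = 0.00379) fell in females too. ESRRB (2.34, adjusted p = 3.75e-05), KLF5 (1.34, adjusted p = 0.0021), WWTR1 (1.62, adjusted p = 0.00261), POU5F1 (1.40, adjusted p = 0.00744), TBX3 (1.06, adjusted p = 0.00199), ID2 (2.41, adjusted p = 0.00177) and GATA6 (0.82, adjusted p = 0.0295) rose. CDX2 had a difference of 0.67 in females and was not called (adjusted p = 0.219). Of the ribosomal protein genes 9 were higher and 14 lower in females, with RPL31 (0.99, adjusted p = 0.00863) and RPL24 (-2.53, adjusted p = 0.0356) as in males. RPL37, which was chosen for naming after its values were seen, was called in opposite directions, at 122 to 312 against 67.0 to 114 FPKM in males (1.05, adjusted p = 0.0113) and at 4.92 to 75.0 against 73.4 to 204 FPKM in females (-1.98, adjusted p = 0.0306, adjusted p of the interaction 0.0119). Of the oxidative phosphorylation genes 2 were higher and 14 lower.

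An interaction of sex with SCNT against sham, fitted to all 23 embryos, was called for 315 of 14585 autosomal genes (2.16%), among them 59 of the 810 and 73 of the 878 male calls. The count was 190 without male SCNT replicate 1, 185 without female sham replicate 2 and 152 without female sham replicate 4. B3GNT6, a mucin glycosyltransferase, fell by 3.77 in males, where SCNT-BLs stood at 0.661 to 6.60 and sham NT-BLs at 3.37 to 142 FPKM, and rose by 3.34 in females (adjusted p of the interaction 4.77e-04). SPRY2 fell by 1.37 in males and rose by 2.18 in females (interaction 7.20e-04). NDUFB6 (interaction 0.00654), RPL38 (0.00929), ULBP11 (0.00744), HSPE1 (0.037), PLIN3 (0.0431), HOXC6 (0.0471) and JUP (0.0355) also differed between the sexes, with female differences of -0.14, -0.43, -1.62, -0.13, -0.71, -0.03 and 0.46. JUP, a junction protein, was chosen for naming after its values were seen. TEAD4, not called in males at -0.63, rose in females by 1.35 (adjusted p = 0.0411), and its interaction passed (0.0323). MIR2290 was listed at 0 in all 6 male SCNT-BLs, in all male IVF-BLs and in 2 of 6 male sham NT-BLs, and reached 1426 FPKM in the other sham NT-BLs, whereas female SCNT-BLs stood at 287 to 661 FPKM (interaction 0.00364). In the male donor library the donor cell set above summed to 47466 FPKM with MIR2290 and to 46118 FPKM without it. MIR2290 is a short annotated feature in poly-A libraries, where division by length can turn few fragments into large FPKM. Fragment counts are not known, and the part of this in the MIR2290 values was not tested.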

How the data were processed

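RNA with poly-A tails from each blastocyst went through random-primed PCR amplification (pico-profiling) before sequencing, with the sexes on separate flow cells. The authors trimmed reads with Trim Galore, aligned them to the bovine build UMD 3.1 with TopHat and estimated known transcripts with Cufflinks, and the deposited table holds FPKM per gene, which is not a count. The 6 male SCNT and 6 male sham NT libraries were taken by their labels. Values were used as log2(FPKM + 1) of the deposited values, genes with a mean above 0.1 FPKM in these 12 libraries were kept, and limma 3.58.1 in R 4.3.3 with a mean-variance trend was fitted to 14783 genes, X-linked ones included, with Benjamini-Hochberg adjustment over all of them and a threshold of 0.05. Every adjusted p comes from limma. Rows were taken as autosomal when outside the X block of the table and not placed on X or Y in a later assembly, which names 17359 of the 21608 rows. The number of detected genes was compared by an exact permutation test over the 924 labelings. Replicates are separate embryos, but runs of fertilization or culture are not given in the sources used here. Genes were named by a rule: the 14 largest changes per direction among calls with a single symbol, and up to 5 calls per direction from each of 42 lists, with all members of 4 lists open to naming, and uncalled members with their values. The comparison, members and lists were chosen with earlier results of these data known. Alternatives were another pseudocount (0.1), other filters, scalings and limma settings, a replicate block, sham replicate 2 alone, and leaving out each library. The rescaling without ribosomal RNA, the fit without sham replicate 2 and the gene sets drawn from donor and IVF libraries were added after seeing the data. The fit was tested on simulated data drawn from the means and spreads of the male comparison (14783 genes). Changes were given only to genes with higher mean levels, and noise was drawn independently for each gene. The fit called 31% of 100 genes given a log2 change of 1, 86% of 100 given a log2 change of 2, and 3 unchanged genes. These results do not cover genes with low values or noise shared between genes. Fragment counts are not part of the FPKM table, so no counting intervals are given. Some genes are not reported here.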

Additional observations from a re-analysis of the deposited data

Results flagged for a closer look

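Within groups of 6, 12 of the 262 groups of values checked (131 genes) held an embryo set apart from the others by Dixon's test on the log2 scale, where chance gives about 1 in 20. In male SCNT-BLs the highest embryo stood apart for BIRC5 (46.8 FPKM, replicate 3), MBD2 (15.5 FPKM, replicate 5), PTGES (46.9 FPKM, replicate 4), COL3A1 (0.0251 FPKM, replicate 6) and PRRX1 (0.164 FPKM, replicate 6). The lowest stood apart for KRT8 (1246 FPKM, replicate 6), RPS14 (729.6 FPKM, replicate 6) and NDUFB6 (123 FPKM, replicate 5). In male sham NT-BLs the lowest stood apart for B3GNT6 (3.37 FPKM, replicate 3) and DKKL1 (1.01 FPKM, replicate 3), and the highest for HIST1H2AJ (2.09 FPKM, replicate 1) and SLC2A1 (113 FPKM, replicate 4).

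For 12 named genes the SCNT against sham difference differed between males and females by limma's interaction test. The male minus the female difference was -13.05 for MIR2290, -7.11 for B3GNT6, -3.55 for SPRY2, -2.82 for HOXC6, -1.98 for TEAD4, -1.65 for JUP and -1.46 for PLIN3. It was 4.74 for ULBP11, 3.06 for RPL38, 3.03 for RPL37, 2.29 for NDUFB6 and 1.55 for HSPE1. The sexes also differed in donor cells and flow cell, so sex and these cannot be told apart.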

How the results depend on the processing

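With sham replicate 2 as the only sham library, 269 genes were higher and 464 lower, and the difference in detected genes turned to -480.2. The lone sham library is then assumed to vary like the SCNT libraries. Leaving out single libraries gave 643 to 820 higher and 690 to 926 lower genes, 152 to 350 genes with an interaction and 446 to 593 genes called alike in both sexes. Replicate numbers did not pair the embryos (r of deviations from -0.134 to 0.0254 over 6 pairs, 0 best matches with the own number). With these numbers as a replicate block 612 genes were higher and 668 lower, 94 had an interaction and 374 were called alike in both sexes. Of 198 genes open to naming by the rule, 60 kept their call under every alternative run, 145 under every one but sham replicate 2 alone, and 0 reversed. Counts over gene lists moved by over 1.5 times in 156 of the fits by list that leave out a library and stayed the same by this measure in 900. In the other alternatives they moved in 141 and stayed the same in 827. Depth in fragments is unknown, which limits what can be said of genes near 0.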
